A study of Mus musculus with 18 samples.

Results

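The collagen genes were followed in RNA from mouse heart tissue. The family was taken as every protein-coding gene of GENCODE M21 whose symbol reads Col, a number, a and a number. These were 44 genes, and all 44 were among the 34150 genes of the deposited files. By the structure that their proteins build they fall into 11 fibrillar collagens, 9 FACIT collagens (fibril-associated collagens with interrupted triple helices), 6 basement membrane collagens, 6 beaded filament collagens, 3 short-chain network collagens, 4 transmembrane collagens, 2 multiplexins, 1 anchoring fibril collagen and 2 others.

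Ribosomal RNA was removed from total heart RNA before sequencing. There were 18 libraries: 6 control, 6 with myocardial infarction (MI) and 6 of the HXP group. By its title the series examined a mouse model of acute MI after HXP treatment. The labels used here give no strain, age, dose or time after infarction, and they say neither what HXP stands for nor whether all HXP mice had an infarct. They do not describe what the control mice underwent, nor say that each library of a group came from a separate animal, so p-values measure only the spread between these libraries.

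Collagens are secreted proteins whose chains wind into a triple helix. In the heart, type I and type III collagen form the fibrils of the interstitium and of scar, type IV forms the sheet-like network of the basement membranes around cardiomyocytes and capillaries, and type VI forms beaded filaments between them. Fibroblasts are the main source of fibrillar collagen in an infarct, while endothelial and other cells make much of the type IV collagen.

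Each library held 75.8 to 81.1 M reads by the steps of its FPKM values (fragments per kilobase of exon and per M reads), a unit that allows levels of different genes to be compared. Mitochondrial genes took 36.4% to 42.6% of these reads in the control libraries, 20.4% to 33.2% in the MI libraries and 20.5% to 45.5% in the HXP libraries. Marker genes of lung epithelium summed to 1151 FPKM in MI replicate 5 and to 0.628 or less in every other MI library. Marker genes of skeletal muscle summed to 1443 FPKM in MI replicate 4, against 995 in the next MI library and up to 1043 in control. The library numbers in the file headers formed 3 runs, of which 1 held 10 libraries (3 control, 5 MI and 2 HXP). Another run held HXP replicates 1, 3, 4 and 6 with control replicate 1 and no MI library. The remaining run held control replicates 2 and 5 and MI replicate 5. Between HXP and MI, group and run therefore cannot be fully told apart. Cardiomyocyte markers were high in every library, with sums of 3660 FPKM or more, beside the lung and skeletal muscle markers just given.

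The 6 type IV collagen genes lie in 3 pairs that are read away from each other, and the sequence between their starts is shown because the members of a pair are compared below. On mouse build GRCm38, Col4a1 (ENSMUSG00000031502, chr8:11198423-11312826, minus strand) and Col4a2 (ENSMUSG00000031503, chr8:11312805-11449287, plus strand) overlap by 22 bases at their first exons, chr8:11312805-11312826. Col4a4 (chr1:82448423-82586849, minus strand) and Col4a3 (chr1:82586921-82722059, plus strand) are 71 bases apart, chr1:82586850-82586920. Both stretches are given on the plus strand, with bases from RefSeq on GRCm38.p6.
Col4a1 and Col4a2, shared: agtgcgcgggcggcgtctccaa
Col4a4 and Col4a3, between starts: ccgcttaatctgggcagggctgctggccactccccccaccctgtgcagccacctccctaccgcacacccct
The remaining pair, Col4a6 and Col4a5 on chromosome X, has 1308 bases between its starts. No source used here says whether reads were counted by strand, so reads within the 22 shared bases cannot be assigned to one gene.

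Neighbouring members of other classes are arranged differently. Col3a1 (ENSMUSG00000026043, chr1:45311538-45349706, plus strand) and Col5a2 (ENSMUSG00000026042, chr1:45374321-45503282, minus strand) lie tail to tail with 24614 bases between them. Col6a2 and Col6a1 on chromosome 10 are read in the same direction, as are Col6a6, Col6a5 and Col6a4 on chromosome 9. Col8a1 (ENSMUSG00000068196, chr16:57624258-57754737, minus strand) and Col8a2 (ENSMUSG00000056174, chr4:126286793-126314330, plus strand), the chains of type VIII collagen, are on separate chromosomes.

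The 250 bases before the RefSeq start are shown for Col3a1, the most abundant member in every MI heart, and for the pair Col8a1 and Col8a2, whose ratio differed widely between the groups. Capitals mark the matches on either strand to TATAAA, the core of the TATA element, or to GGGCGG, the core of the GC box, and each sequence runs along the strand of its gene. The windows are chr1:45311288-45311537, chr16:57754738-57754987 and chr4:126286544-126286793, in that order.
Col3a1: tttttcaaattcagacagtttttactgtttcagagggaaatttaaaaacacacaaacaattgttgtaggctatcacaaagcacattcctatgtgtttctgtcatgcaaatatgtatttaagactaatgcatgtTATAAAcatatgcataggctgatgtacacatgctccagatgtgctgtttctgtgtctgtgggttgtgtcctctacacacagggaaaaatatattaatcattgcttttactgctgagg
Col8a1: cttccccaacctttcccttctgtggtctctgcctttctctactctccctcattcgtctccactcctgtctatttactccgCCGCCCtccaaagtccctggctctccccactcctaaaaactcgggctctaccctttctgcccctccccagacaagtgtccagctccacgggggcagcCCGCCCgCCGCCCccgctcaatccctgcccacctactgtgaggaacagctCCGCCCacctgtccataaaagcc
Col8a2: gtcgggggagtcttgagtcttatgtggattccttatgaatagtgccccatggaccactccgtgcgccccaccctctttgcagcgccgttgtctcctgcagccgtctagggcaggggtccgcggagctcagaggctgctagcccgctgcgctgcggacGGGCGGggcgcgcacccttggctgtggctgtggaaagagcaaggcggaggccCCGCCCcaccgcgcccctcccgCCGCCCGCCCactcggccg
Col3a1 held 1 match to TATAAA and none to GGGCGG, whereas Col8a1 and Col8a2 each held 4 matches to GGGCGG, of which the last 2 in Col8a2 overlap, and none to TATAAA. RefSeq gave windows for 35 of the 44 genes, 38 windows in all. GGGCGG occurred in 22 of the 38 windows (57.9%) and in 32.7% of all 32851 windows of this length. TATAAA occurred in 5 of the 38 (13.2%) and in 12.4% of all, and CCAAT in 13 (34.2%) and in 33.8%. A match describes the letters only.

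In control hearts the 44 genes together summed to 150 to 292 FPKM (median 243). The type IV chains made up 44.1% to 52.9% of that sum and the fibrillar collagens 22.8% to 28.8%. Col4a1 was the most abundant member in 5 control libraries and Col4a2 in control replicate 2, with Col3a1 in the third place in all 6. Beaded filament collagens contributed 12.7% to 16.3% and the multiplexins 6.15% to 8.09%. In each control library basement membrane collagen RNA thus exceeded fibrillar collagen RNA.

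**Figure D1:**
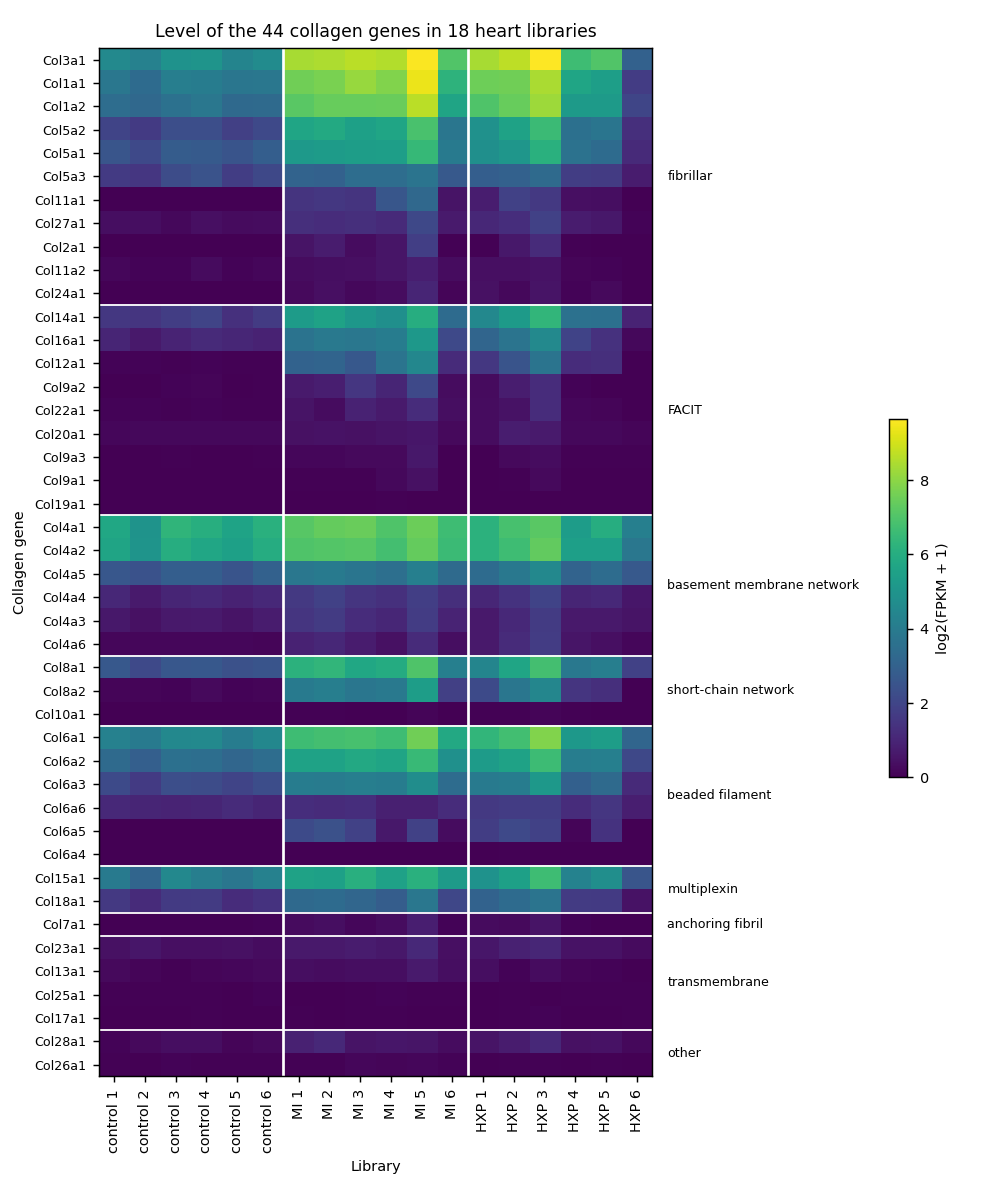
Level of each of the 44 collagen genes (rows, grouped by class and ordered by mean) in each of the 18 libraries (columns), as log2(FPKM + 1). The fibrillar block is bright in MI, the type IV block is visible in all groups, and HXP replicate 6 is the darkest column, with 75.2 FPKM in all.

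The comparison of MI with control asks how the infarcted heart differed. Collagen RNA was higher in MI across most of the family. In all, 26 of the 28 members with a mean of at least 0.5 FPKM rose (limma, adjusted p below 0.05 over 13710 genes) and none fell, against 40.1% of all tested genes that rose and 3.21% that fell. The median log2 fold change of the 28 was 1.75, against 0.27 for all tested genes. In 26 of the 28 each MI library was above each control library, which held for 27.9% of all tested genes. Of the 28, 8 had a control mean under 0.5 FPKM and passed the filter through MI or HXP hearts. They were Col4a6, Col6a5, Col8a2, Col9a2, Col11a1, Col12a1, Col23a1 and Col27a1. The filter itself favours a rise in them, and the class counts below include them. At an unadjusted p below 0.05, 27 of 28 members and 50.0% of all tested genes were higher. Fold changes are differences of log2(FPKM + 1), which understate the change of genes well below 1 FPKM. In bulk tissue, more cells of a type and more RNA per cell cannot be told apart. Markers of fibroblasts moved with the collagens: 6 of 6 rose, with sums of 116 to 158 FPKM in control, 219 to 809 in MI hearts and 103 to 1178 in HXP hearts, and their part in the result was not tested. Macrophage markers (5 of 5 rose) and mesothelial markers (5 of 5) did likewise, against 1 of 5 endothelial and 3 of 6 smooth muscle and pericyte markers.

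Fibrillar collagens, which form the tension-bearing fibrils, had 8 of 8 tested members higher in MI, with a median log2 fold change of 3.10. Below, 3 values in a row are the lowest, the median and the highest of a group of 6 libraries. In 25 of the 28 tested members the highest MI value is that of MI replicate 5, the library with the lung epithelium markers. Col1a1 (ENSMUSG00000001506, chr11:94936224-94953042), the main chain of type I collagen, was at 9.25, 13.3 and 16.7 FPKM in control and at 74.1, 219 and 668 in MI. Col1a2 (chr6:4504814-4541544), its partner chain, was at 8.56, 9.44 and 13.2 FPKM in control and at 48.4, 169 and 399 in MI. Neither gene's groups overlapped, and the log2 fold changes were 3.98 ± 0.82 (SE) and 3.83 ± 0.75, with adjusted p (limma) of 0.0139 and 0.0136. Col3a1, the chain of type III collagen, was at 17.7, 23.3 and 30.8 FPKM in control and at 128, 362 and 773 in MI, a log2 fold change of 3.83 ± 0.78 (limma adjusted p = 0.0137).

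The type V chains, which co-assemble with type I collagen and set fibril diameter, rose by unequal amounts. Col5a2 was at 2.13, 3.15 and 4.02 FPKM in control and at 12.8, 49.8 and 117 in MI (log2 fold change 3.52 ± 0.65, limma adjusted p = 0.0127). Col5a1 (chr2:27886425-28039514) went from 3.35, 5.25 and 6.35 to 14.9, 39.2 and 88.4 FPKM, a log2 fold change of 2.69 ± 0.59. Col5a3 had the lowest rise of the 3, from 1.90, 2.80 and 4.56 to 5.50, 8.70 and 12.1 FPKM (1.28 ± 0.35). Thus Col5a2 lay below Col5a1 in control by its median and above it in MI. Col11a1, a fibrillar chain best known from cartilage, was at 0.0175 FPKM or less in control (0 to 17 reads) and at 0.422, 1.84 and 8.60 in MI (log2 fold change 1.79). Col27a1 rose by 0.96.

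FACIT collagens, which sit on the surface of fibrils, had 4 of 4 tested members higher in MI (median log2 fold change 2.89). Of these, Col12a1 and Col9a2 passed the filter only through MI or HXP hearts. Col14a1 (ENSMUSG00000022371, chr15:55307750-55520803) was at 1.53, 2.09 and 2.98 FPKM in control and at 9.43, 36.3 and 63.9 in MI, a log2 fold change of 3.40 ± 0.64. Col12a1 (ENSMUSG00000032332, chr9:79598991-79718831) was low but detected in every control library, at 0.0348, 0.0541 and 0.0721 FPKM, or 43 to 86 reads. In MI it was at 1.25, 7.35 and 21.2 FPKM (log2 fold change 2.94 ± 0.52, limma adjusted p = 0.0127). So Col14a1 was readily measured in control hearts, whereas Col12a1 was at a far lower level in them. Col16a1 rose by 2.83 and Col9a2 by 1.03.

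Short-chain network collagens form hexagonal lattices, and both tested members, the type VIII chains, rose (median log2 fold change 3.55). Col8a1 was at 3.39, 4.90 and 5.38 FPKM in control and at 16.8, 66.1 and 126 in MI (3.40 ± 0.60, limma adjusted p = 0.0127). Col8a2 was at 0.0570, 0.0932 and 0.171 FPKM in control (20 to 60 reads) and at 2.54, 14.1 and 40.5 in MI (3.69 ± 0.62, limma adjusted p = 0.0127). Both chains separated the groups completely, although their levels in control were far apart. The third member of the class, Col10a1, was at 0.0824 FPKM or less in control and MI.

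Basement membrane collagens had 6 of 6 members higher in MI, with a median log2 fold change of 0.89. Col4a1 was at 30.2, 59.1 and 77.9 FPKM in control and at 100.3, 152 and 178 in MI (1.38 ± 0.38, limma adjusted p = 0.0161). Col4a2 was at 30.5, 49.7 and 63.96 FPKM in control and at 93.7, 130.2 and 164 in MI (1.35 ± 0.40, limma adjusted p = 0.0192). These are the chains of the common type IV network, and neither overlapped between the groups. Col4a3, Col4a4 and Col4a5 form the specialised network of the kidney and lung, and in the heart Col4a5 was the highest of them, at 4.39, 5.76 and 7.03 FPKM in control and 9.10, 12.8 and 17.1 in MI (1.04 ± 0.23). Col4a3 rose by 0.74, Col4a6 by 0.62 and Col4a4 by 0.58. Col4a6 had the highest adjusted p of the called members (0.0295, limma); over the alternatives its adjusted p ran from 0.00215 to 0.131, and it lost the call without control replicate 1 or 2 or without MI replicate 1, 2 or 5 (adjusted p up to 0.0740).

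Beaded filament collagens had 4 of 5 tested members higher (median log2 fold change 1.96). Col6a1 (chr10:76708792-76726168) was at 14.7, 19.3 and 22.2 FPKM in control and at 55.6, 104 and 187 in MI, and Col6a2 and Col6a3, the other chains of the main type VI trimer, rose beside it (2.43 ± 0.53, 2.33 ± 0.52 and 1.96 ± 0.44). Col6a5 and Col6a6 are alternatives to Col6a3, and they differed. Col6a5 was at 0.0217 FPKM or less in control (0 to 16 reads) and at 0.247, 2.64 and 4.31 in MI, a log2 fold change of 1.54. Col6a6 (ENSMUSG00000043719) was at 0.935, 1.02 and 1.297 FPKM in control and at 0.779, 1.32 and 1.39 in MI, with overlapping groups and a log2 fold change of 0.05 ± 0.14 (limma adjusted p = 0.782). Its sign turned under 4 other settings (-0.28 with quantile normalization, limma adjusted p = 0.0487; -0.14, -0.0746 and -0.26 with the others).

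Both multiplexins, basement membrane zone proteoglycans with a cleavable end, rose: Col15a1 by 1.72 ± 0.46 and Col18a1, the precursor of endostatin, by 1.65 ± 0.44. Col15a1 was at 7.96, 15.5 and 21.5 FPKM in control and at 37.2, 45.7 and 69.7 in MI. Col18a1 was at 1.29, 1.84 and 2.20 FPKM in control and at 3.18, 8.45 and 13.2 in MI. The 1 tested transmembrane collagen, Col23a1, was not called: it was at 0.261, 0.326 and 0.485 FPKM in control and at 0.305, 0.596 and 1.18 in MI (log2 fold change 0.28 ± 0.13, limma adjusted p = 0.0816), and its sign turned under quantile normalization and a GC correction (-0.049 in each).

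**Figure D2:**
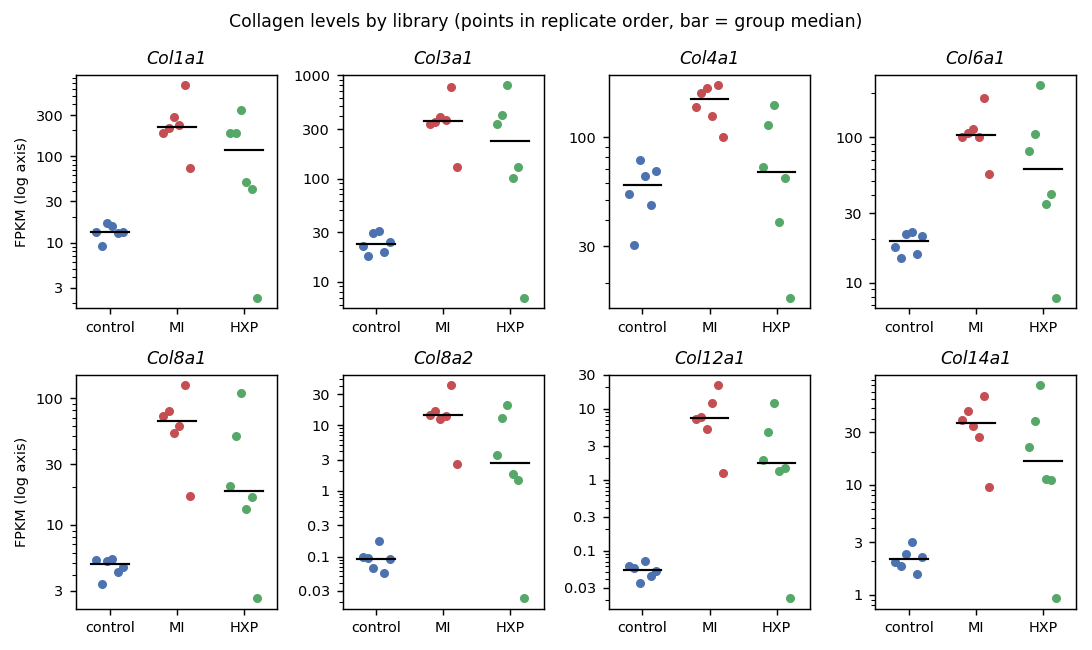
FPKM (log axis) of 8 collagen genes in each library, with points in replicate order and the group median as a bar. Control and MI do not overlap in any of the 8 panels, while the HXP points run from below the controls to the upper MI libraries, with HXP replicate 6 at 2.29 FPKM of Col1a1.

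The count of 26 depended on which libraries were included. Without MI replicate 5, which was the highest MI library in 25 of the 28 tested members (45.6% of all tested genes), 25 rose against 18.4% of all tested genes. MI replicate 5 is the library with 1151 FPKM of lung epithelium markers, and the part of lung tissue in its values was not tested. Within the run of 10 libraries, 10 rose against 0.54%, and all 28 kept a positive sign. Without MI replicates 4 and 5 together, limma called 0 of 28 (and 0.0% of all tested genes). The median log2 fold change of the 28 was 1.66 in that fit, against 0.26 for all tested genes. The limma adjusted p was then above 0.05 but at most 0.0555 for Col1a1, Col1a2 and Col3a1. For Col4a1 and Col4a2 it was at most 0.0595 and 0.0625.

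Members below the filter on low values numbered 16. Of the 28 that passed, 8 had a control mean under 0.5 FPKM and so passed through the infarcted or HXP hearts. Just inside the filter lay Col23a1, with a mean of 0.518 FPKM, and just outside it Col28a1, with 0.438. With no filter, 4 of the 16 were called higher in MI (Col22a1, Col24a1, Col11a2 and Col13a1), beside 11.4% of all 34150 genes. That share includes the genes above the filter and was not computed for those below it alone. In 8 of the 16 each MI library was above each control library, which held for 3.04% of the 20440 genes below the filter. Col2a1 and Col9a1, chains of cartilage collagen, were at most 0.00564 FPKM and at 0 in control. They reached 2.45 and 0.341 FPKM in MI replicate 5. It also had the highest sum of cartilage markers (24.6 FPKM, against 7.55 in the next MI library and 0.508 to 1.32 in control). Lung epithelium markers summed to 1151 FPKM in the same library. Of the 3 tested cartilage markers 2 rose in MI, beside 40.1% of all tested genes. The cartilage markers summed to 1.86 FPKM or more in every MI library. Among them Matn1 was at 0 in every control library and at most 0.0263 FPKM in MI. The part of cartilage or of lung tissue in these values was not tested. Col25a1, Col17a1, Col19a1 and Col6a4 stayed at or below 0.0733 FPKM in every library.

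The comparison of HXP with MI asks whether treatment was accompanied by a different collagen level. No member passed the test: limma called 0 of 28 tested members and 0.0% of all tested genes in either direction. At an unadjusted p below 0.05 there were 13 lower members (11.9% of all tested genes) and 1 higher (1.89%). The fitted change was negative in 27 of 28, with a median of -0.98 against -0.12 for all tested genes. With the run of library numbers as a covariate, 1 member had an unadjusted limma p below 0.05. The median was then -0.75, against -0.073 for all tested genes. Within the run of 10 libraries, 4 members had such a p, with a median of -0.47 against -0.054. The share of all tested genes with such a p was not computed for either fit, so these counts have no background. No member separated the groups, which was so for all but 0.117% (higher) and 0.306% (lower) of all tested genes.

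The 6 members with the smallest p were Col4a1, Col4a2, Col5a3, Col9a2, Col8a2 and Col4a3. Col4a1 was at 16.9, 68.0 and 143 FPKM in HXP, against 100.3, 152 and 178 in MI, and the groups overlapped. Its log2 fold change was -1.23 ± 0.38 (limma unadjusted p = 0.00507, adjusted 0.256). Col4a2 was at 13.3, 57.7 and 159 FPKM in HXP (-1.16 ± 0.40, limma adjusted p = 0.281). Both type IV chains thus had HXP medians close to those of control, with 1 HXP library below every control. Col5a3 was at 0.654, 4.40 and 9.22 FPKM in HXP (-1.002 ± 0.35), Col8a2 at 0.0232, 2.65 and 20.4 (-1.63 ± 0.62), Col9a2 at 0, 0.146 and 1.32 (-0.68 ± 0.26) and Col4a3 at 0.413, 0.588 and 2.22 (-0.46 ± 0.18).

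The abundant fibrillar chains ranged more widely within HXP than between the means of HXP and MI. Col1a1 was at 2.29, 118 and 345 FPKM in HXP. The fitted change was -1.76 ± 0.82 (limma adjusted p = 0.359) and ran from -2.24 to -0.89 when each library was left out in turn. Col3a1, at 6.97, 233 and 803 FPKM in HXP, had a log2 fold change of -1.20 ± 0.78 (limma adjusted p = 0.460). Col6a6 was the 1 member with a positive sign: 0.744, 1.96 and 2.41 FPKM in HXP against 0.779, 1.32 and 1.39 in MI, a log2 fold change of 0.34 ± 0.14 (limma adjusted p = 0.333). In 4 of the 6 HXP libraries Col6a6 was above every MI library.

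The position of the HXP libraries was shared by most members. HXP replicate 6 was the lowest of its group in 28 of 28 tested members (58.1% of all tested genes) and below every control in 22 of 28 (40.8%). The same library had the highest mitochondrial share (45.5%) and the fewest genes at 1 FPKM or more (9888). HXP replicate 3 was the highest in 26 of 28 (54.4%) and exceeded every MI library in 10 of 28, beside 39.5% of all tested genes. HXP replicates 1 and 2 lay within the MI range in 21 and 27 of 28 members (71.9% and 76.5% of all tested genes). Replicates 4 and 5 lay above every control in 19 and 20 of 28 members (25.1% and 29.9%) and below every MI library in 22 and 20 (48.5% and 44.8%). Fibroblast markers had their highest HXP sum in replicate 3 as well, and their part was not tested.

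Between HXP and control, which shares the HXP libraries with the comparison above and the control libraries with the first, limma called 0 of 28 members, against 0.0948% of all tested genes higher and 0.219% lower. All 28 fitted changes were positive, with a median of 1.04 against 0.16 for all tested genes, and 19 had an unadjusted p below 0.05 (27.7% of all tested genes in that direction, and 5.45% in the other, which held no member). In no member were all HXP libraries above all controls or below them, as in 1.13% and 0.569% of all tested genes. Without HXP replicate 6, 20 members were called higher, beside 28.1% of all tested genes, so the count depended on this 1 library. It depended on the scaling too: with a scaling to non-mitochondrial FPKM, 8 were called higher, beside 5.72% of all tested genes. The 6 smallest p belonged to Col14a1, Col5a2, Col3a1, Col4a5, Col8a2 and Col8a1, with adjusted p (limma) of 0.0859 to 0.0890 and log2 fold changes of 2.41 ± 0.64, 2.24 ± 0.65, 2.63 ± 0.78, 0.77 ± 0.23, 2.07 ± 0.62 and 1.96 ± 0.60. Col14a1 was at 0.928, 16.6 and 80.0 FPKM in HXP, and 5 of its 6 HXP values lay above the highest control. Col5a2 was at 1.49, 20.6 and 94.1 FPKM, Col8a1 at 2.63, 18.3 and 109 and Col4a5 at 5.51, 9.55 and 22.0.

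**Figure D3:**
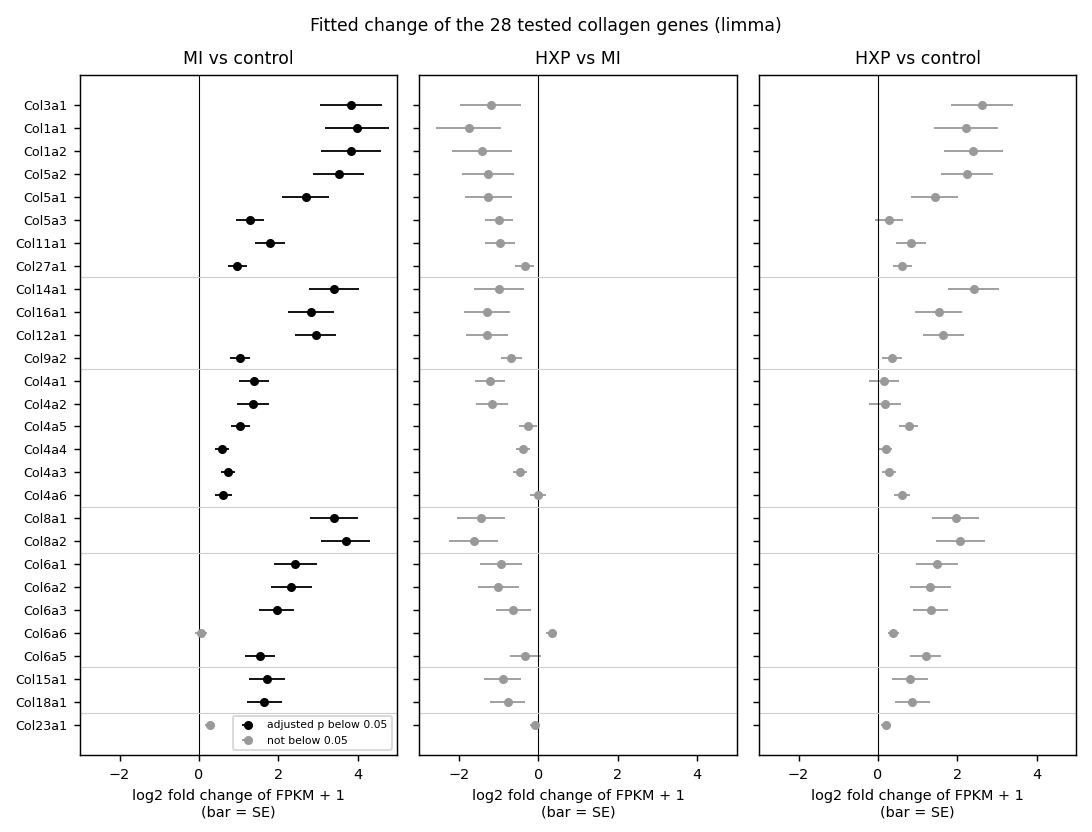
Log2 fold change of FPKM + 1 with its SE for the 28 tested collagen genes, ordered by class, in the 3 comparisons (black, limma adjusted p below 0.05; grey, not). In MI against control 26 genes are black and all lie to the right of 0, while in the panels with HXP all are grey, 27 of 28 left of 0 against MI and 28 of 28 right of 0 against control.

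The make-up of the collagen RNA also differed. The 44 genes summed to 661 to 3122 FPKM in MI (median 1516) and to 75.2 to 2690 in HXP (median 792), or 0.188% to 0.347% of the non-mitochondrial reads of control libraries, 0.766% to 3.21% of those of MI libraries and 0.101% to 2.79% of those of HXP libraries. The fibrillar share was 43.2% to 66.4% in MI hearts and 21% to 64.8% in HXP hearts. The type IV share was 11.7% to 31.1% in MI and 12.3% to 48.8% in HXP. Every MI library had a higher fibrillar and a lower type IV share than every control library. Col3a1 was the most abundant member in all 6 MI libraries and in HXP replicates 1 to 5, and Col4a1 in HXP replicate 6, whose fibrillar share of 21% was below that of every control.

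**Figure D4:**
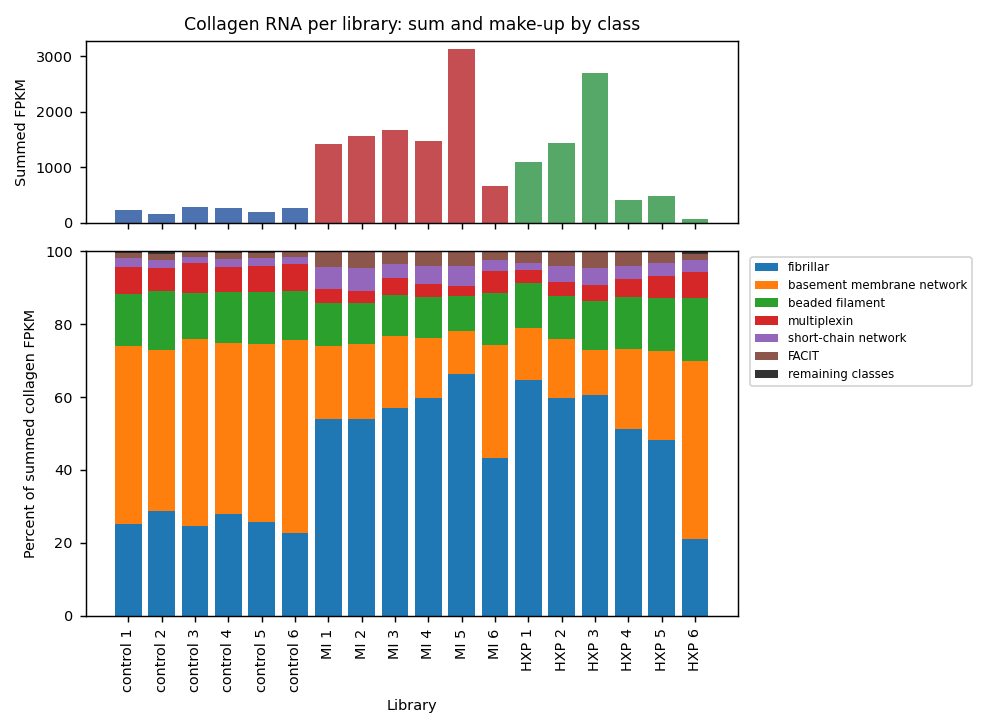
Summed FPKM of the 44 collagen genes in each library (top) and the percent of that sum in each class (bottom). The type IV share, 44.1% or more in each control, is at most 31.1% in MI, and HXP replicate 6 has 48.8%.

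Ratios of 2 chains within a library do not depend on how the library was scaled. For 11 pairs the mean log2 ratio was compared between groups with a two-sided exact permutation test (6 libraries against 6, smallest possible p 0.00216), adjusted over 33 tests. Between MI and control 6 ratios differed. Col8a1 was 31.6 to 77.8 times Col8a2 in control and 3.11 to 6.63 times in MI, a log2 difference of -3.49 (exact permutation adjusted p = 0.0102). Col12a1 was 0.0149 to 0.0316 times Col14a1 in control and 0.132 to 0.447 times in MI (3.09, exact permutation adjusted p = 0.0102). In both pairs the chain that was scarce in control had the larger relative increase. With a pseudocount of 1, which hides values this low, the first difference shrank to -0.29 and the second turned to -0.46. Neither was then called (exact permutation adjusted p = 0.110 and 0.188).

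The ratio of Col4a1 to Col1a1, basement membrane against fibrillar, was 3.26 to 5.19 in control and 0.266 to 1.35 in MI (log2 difference -2.68, exact permutation adjusted p = 0.0102). Col5a1 to Col1a1 was 0.357 to 0.478 in control and 0.132 to 0.200 in MI (-1.16, exact permutation adjusted p = 0.0102). Col5a1 RNA was thus lower relative to Col1a1 in each MI library than in each control library. Col5a2 to Col5a1 was 0.533 to 0.713 in control and 0.861 to 1.501 in MI (0.97, exact permutation adjusted p = 0.0102), and Col6a3 to Col6a1 differed by -0.23 (exact permutation adjusted p = 0.0408) with overlapping groups.

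For 3 pairs of partner chains the ratio did not pass the test between MI and control, unlike those of Col8a1 to Col8a2, Col5a2 to Col5a1 and Col6a3 to Col6a1 above. Col4a1 to Col4a2, the pair that overlaps by the 22 bases shown above, was 0.990 to 1.27 in control hearts, 1.07 to 1.24 in MI hearts and 0.897 to 1.51 in HXP hearts. Its log2 ratio differed by 0.03 between MI and control (exact permutation adjusted p = 0.726). Col1a1 to Col1a2 was 1.08 to 1.49 in control and 1.24 to 1.69 in MI (0.12, exact permutation adjusted p = 0.399), and Col6a1 to Col6a2 differed by 0.04 (exact permutation adjusted p = 0.480).

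The ratio of Col1a1 to Col3a1 set HXP apart from MI. It was 0.510, 0.555 and 0.665 in control, 0.563, 0.605 and 0.865 in MI, and 0.321, 0.438 and 0.547 in HXP. Each HXP library was below each MI library, and the log2 difference was -0.62 (exact permutation p = 0.00216, adjusted 0.0102). Against control the difference was -0.43 (exact permutation adjusted p = 0.0397), with overlap. Within the run of 10 libraries it was -0.69 from 2 HXP and 5 MI libraries, and with each library left out in turn it ran from -0.69 to -0.53. After a correction for transcript GC content it was -0.40 (exact permutation adjusted p = 0.0102).

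Col12a1 to Col14a1 was lower in HXP than in MI as well (0.0230 to 0.151 against 0.132 to 0.447; log2 difference -1.20, exact permutation adjusted p = 0.0268). It lost the call without MI replicate 4 or 5 or HXP replicate 4, 5 or 6 (adjusted p up to 0.0714), and HXP replicate 6 had 25 reads of Col12a1. The other 9 pairs did not pass between HXP and MI; of these Col1a1 to Col1a2 had a difference of -0.36 (exact permutation adjusted p = 0.0848). HXP and control differed in 7 of 11 ratios, among them Col5a2 to Col5a1 (0.98, exact permutation adjusted p = 0.0102), Col8a1 to Col8a2 (-2.32, adjusted 0.0408) and Col4a1 to Col1a1 (-2.07, adjusted 0.0408), the last 2 with HXP replicate 6 on the side of the controls. That number was 1 to 4 without any 1 of control replicates 1, 3, 5 and 6 and HXP replicates 1 to 5.

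**Figure D5:**
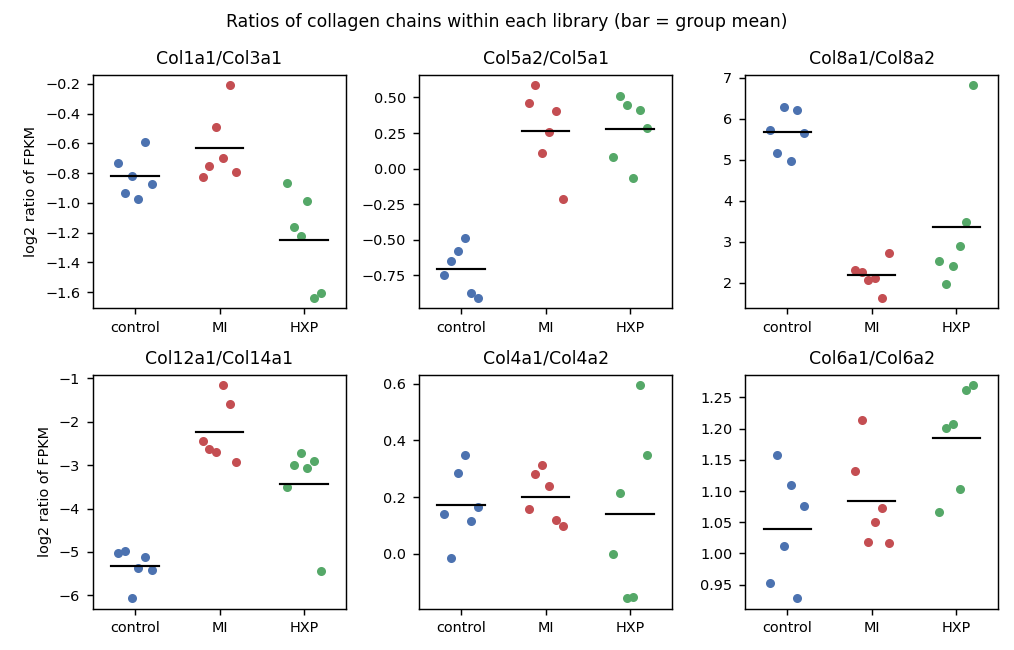
Log2 ratio of 2 collagen chains within each library for 6 pairs, with the group mean as a bar. Col1a1/Col3a1 is lower in every HXP library than in every MI library, Col8a1/Col8a2 and Col12a1/Col14a1 separate MI from control by -3.49 and 3.09, and Col4a1/Col4a2 overlaps in all groups.

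Genes that make, secrete, cross-link, bind or degrade collagen rose along with it in MI. Of 49 such genes, 42 were tested, 37 rose and none fell, beside the 40.1% and 3.21% of all tested genes given above. In each of the other comparisons limma called none of the 42. Among folding and hydroxylation genes 16 of 18 rose (median log2 fold change 1.14). Serpinh1, the collagen chaperone HSP47, was at 20.8, 25.7 and 34.0 FPKM in control and at 62.3, 95.8 and 116 in MI (1.69 ± 0.31). P4ha1, a prolyl hydroxylase subunit, rose by 1.02, and Colgalt1, which glycosylates hydroxylysine, missed the threshold (0.52, limma adjusted p = 0.0525).

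All 5 cross-linking enzymes rose, with a median log2 fold change of 2.62. Lox, lysyl oxidase, was at 0.685, 0.800 and 1.59 FPKM in control, at 4.66, 32.6 and 67.5 in MI and at 0.801, 8.08 and 40.7 in HXP (MI against control 3.86 ± 0.65, limma adjusted p = 0.0127). Of 7 tested genes of secretion and propeptide cleavage 6 rose, among them Bmp1, the C-propeptide protease (1.71), and Adamts2, the N-propeptide protease (2.82). Of 8 tested receptors and uptake genes 7 rose, with Itga11, a collagen-binding integrin, at 2.22, and the collagen receptor Ddr2 at 1.03. Among 4 tested degradation genes Mmp2, Mmp14 and Ctsk rose by 2.79, 2.37 and 2.75, and Mmp9 did not pass (0.43, limma adjusted p = 0.233). Ddr2 is also on the fibroblast marker list.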

How the data were processed

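For every library the authors deposited 1 file that lists a value for each Ensembl gene. The deposited values are FPKM, a unit read from the values: value times exon length fell on whole multiples of 1 step in 97.4% to 97.9% of the values checked (within 0.1 read). GRCm38 and limma are named per the submitters' processing notes. The aligner and the counting tool: not given in the sources used here. Of 34150 IDs, 34097 matched GENCODE M21 and 53 did not.

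The 13710 genes whose mean reached 0.5 FPKM were fitted as log2(FPKM + 1) in 1 linear model of 3 groups with limma 3.58.1 (R 4.3.3; mean-variance trend), two-sided, with Benjamini-Hochberg adjustment over all genes and calls below 0.05. Chain ratios used FPKM with no pseudocount. The fit was tested on simulated data. The family, the gene lists and the pairs were chosen with earlier results of these data known. Values are given for the most abundant member of each class, the 10 highest and 5 lowest changes in MI, the 6 smallest p in each HXP comparison and both chains of each pair; other values, pathway genes and examples were chosen after seeing them. The deviations of same-numbered libraries from their group means correlated at -0.0026 to 0.20 in MI against control, -0.31 to 0.63 in HXP against MI (0.63 for replicate 6) and -0.14 to 0.088 in HXP against control. Not every pair was above 0.1 in any comparison, and no label ties the numbers to shared animals or days, so they were not taken as pairs. Alternatives were other pseudocounts, filters, scalings and priors, the compared groups only, the run of library numbers, voom on recovered reads and leaving out each library; the run of 10 libraries alone, leaving out MI replicates 4 and 5, and a GC correction were chosen after seeing the data. Intervals for counting error were not given, since the spread between libraries exceeds it for all but the lowest values. Figures used matplotlib 3.10.9.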

Additional observations from a re-analysis of the deposited data

Results flagged for a closer look

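Of 117 groups of 6 libraries examined (28 tested members and 11 chain ratios in 3 groups each), 5 held a library whose gap to the nearest other took up more of the group's range than Dixon's 95% critical value allows; chance flags about 1 in 20 such groups. Col4a6 was at 0.0898 FPKM in control replicate 6, below the other controls. The log2 ratio of Col5a1 to Col1a1 stood apart in control replicate 6 (-1.06) and in HXP replicate 6 (-0.90), in both cases above the rest of its group. HXP replicate 6 also stood apart in the log2 ratio of Col8a1 to Col8a2 (6.82, with 8 reads of Col8a2) and of Col12a1 to Col14a1 (-5.44, with 25 reads of Col12a1).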

How the results depend on the processing

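For MI against control, 24 to 29 collagen genes were called higher under other pseudocounts, scalings, priors, covariates, no filter or the compared groups only. Of all tested genes, 11.4% (no filter) to 53.9% (compared groups only) were called higher there. Quantile normalization gave 13.2% higher and 17.3% lower. The collagen count was 18 of 18 above a mean of 5 FPKM (35.9% of all tested genes). With each library left out in turn it was 25 to 27 (18.4% to 44.5%). It was 10 in the run of 10 libraries (0.54%) and 0 without MI replicates 4 and 5 (0.0%). The log2 fold change of Col6a6 was -0.28 with quantile normalization, -0.14 with median-ratio scaling, -0.0746 with non-mitochondrial scaling and -0.26 with a GC correction, and that of Col23a1 -0.049 with quantile normalization and -0.049 with a GC correction. For HXP against MI the count was 0 in all settings run. For HXP against control it was 1 with a pseudocount of 0.1 (0.350% of all tested genes were called higher), 7 with quantile normalization (3.93%), 8 with median-ratio scaling (3.87%), 8 with non-mitochondrial scaling (5.72%), 9 with a GC correction (3.82%) and 0 to 20 with each library left out (0.0% to 28.1%), against 0 and 0.0948% as reported. The cause of these shifts was not tested.

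With the replicate number as a block the counts were 26, 0 and 0, so no call count changed. For the chain ratios the block is an exact sign-flip test of 6 pairs, whose smallest p is 0.0312. After adjustment 0 ratios passed in each comparison (Col1a1/Col3a1 in HXP against MI -0.62, sign-flip adjusted p = 0.103). With so high a smallest p, a ratio could pass adjustment over 33 tests only if most of the others reached it too. The sign-flip test therefore cannot decide whether the ratios depend on the replicate number.

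With a pseudocount of 1 the ratios called fell to 1 (HXP against MI) and 3 (HXP against control), and the log2 difference turned for Col12a1/Col14a1 (-0.46 in MI and -0.76 in HXP against control), Col15a1/Col18a1 (0.070 in MI against control, -0.13 in HXP against MI) and Col5a2/Col5a1 in HXP against MI (-0.015; -0.21 with a GC correction). With each library left out, the ratios called numbered 5 to 6 in MI against control, 1 to 3 in HXP against MI and 1 to 6 in HXP against control. The sign was not stable for small differences: Col5a2/Col5a1 ran from -0.086 to 0.079 in HXP against MI, Col4a1/Col4a2 from -0.0088 to 0.064 in MI and from -0.12 to 0.028 in HXP against control, and, in the last comparison, Col6a3/Col6a1 from -0.10 to 0.025 and Col15a1/Col18a1 from -0.29 to 0.041. With a pseudocount of 1 the log2 difference of Col8a1/Col8a2 shrank to -0.29 in MI and to -0.11 in HXP against control. Between MI and control this ratio lost its call, as did Col12a1/Col14a1. Low read numbers limit Col8a2, Col12a1, Col6a5 and Col11a1 in control.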
